A study of Drosophila melanogaster with 3 samples.

Results

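The histone genes of *Drosophila melanogaster* were taken as the protein-coding genes whose symbol begins with His followed by a digit from 1 to 4, which gave 115 of the 13945 protein-coding genes on the 6 chromosome arms. Of these, 111 lay in the tandem array on arm 2L, with 23 copies of His1, 20 of His2A, 23 of His2B, 23 of His3 and 22 of His4. The other 4 were His2Av, His3.3A, His3.3B and His4r, each a separate gene elsewhere in the genome. The measurement was ChIP-seq of CG12659, the fly homologue of INO80C, a subunit of the chromatin remodelling complex INO80. Embryos aged 0 to 24 h, of both sexes, came from the CG12659-GFP line, a transgenic line with GFP on the C terminus of CG12659, and chromatin was recovered with an anti-GFP antibody in 3 biological replicates of 1 group. The promoter that drives the transgene is not stated in the labels, and whole embryos mix all cell types and ages, so a region may come from any of them.

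Histones package DNA into nucleosomes. The copies in the array are the replication-dependent genes, which are transcribed in S phase at a nuclear body called the histone locus body and whose mRNAs end in a stem-loop rather than a poly(A) tail. Genes outside the array encode replacement or variant histones made through the cell cycle. His2Av encodes the only H2A variant of the fly and serves as both H2A.Z and H2A.X, while His3.3A and His3.3B encode H3.3, which is deposited outside replication, and His4r encodes a replacement H4. INO80 slides nucleosomes and is found at many promoters.

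In the authors' lists of regions, all 4 histone genes outside the array carried a region at a transcription start site (TSS) in every list, and 0 of the 111 array copies did in any list. A region was counted at a gene when its summit lay within 500 bp of any annotated TSS. The lists were the reproducible set kept by an irreproducible discovery rate step (the IDR peaks, 8952 regions), the list called on the replicates together (pooled, 30000 regions) and 1 list for each replicate (30000, 30000 and 28466 regions), all on the dm6 build. In the IDR list, 42.3% of all protein-coding genes had such a peak. In the pooled list 57.9% did, and in replicates 1, 2 and 3 the shares were 58.9%, 57.8% and 55.7%. The array count therefore lay below the share of all genes in every list and the count outside the array above it. Neither was tested, since near-identical copies are not independent of each other. For 105 of the 111 array copies, under 10% of 50-base stretches near the TSS occur once in the genome. Of 120 other genes of that kind, 2.5% had an IDR peak and 4.17% a pooled region. Outside the array, 3 of the 4 genes had a divergent TSS within 500 bp. Of all genes so arranged, 78.3% had an IDR peak and 86.0% a pooled region. The lists hold no read counts, so the depth per sample was unknown. The pooled list is labelled as peaks and background given to the IDR step, so a region in it need not be enriched. The replicate lists also held regions of low significance, such as a −log10 q-value of 0.28 at His3.3B in replicate 3. The strongest region at each of the 4 genes had a −log10 q-value of at least 3.98 in every list.

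The promoters of both kinds of gene are shown first, because the array and the separate genes differ in how often their sequence occurs. The array ran from chr2L:21416953-21541681, 124.7 kb, starting with His1:CG33801 and ending with His3:CG33866. Its repeat unit, measured from each His1 gene to the next, had a median of 5045 bp. Of the 22 spacings 21 lay within 5% of it, and the longest was 14041 bp, where the annotation has a roo transposable element between copies. In most units, His4 and His3 are transcribed away from each other from a shared interval, as are His2B and His2A. Among the copies analysed, 3 of the 23 His2B had no His2A beside them and 1 of the 23 His3 had no His4. The 22 His4 to His3 intervals came in 7 versions, the commonest 183 bp long and present 5 times. The 20 His2B to His2A intervals came in 4 versions, the commonest 128 bp long and present 8 times. The 100 bp upstream of the 23 His1 genes came in 5 versions, the commonest present 9 times. These commonest versions are given on the plus strand from the release 6 genome, 5′ to 3′, at the first place where each occurs. Capitals mark matches, on either strand, to 4 motifs searched: TATCGATA (the core of the DNA replication-related element, DRE), GAGAGA (the GA repeat bound by GAGA factor), GGTCACAC (the core of the motif of M1BP) and TATAAA (the TATA box).

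His4 to His3 chr2L:21489647-21489829: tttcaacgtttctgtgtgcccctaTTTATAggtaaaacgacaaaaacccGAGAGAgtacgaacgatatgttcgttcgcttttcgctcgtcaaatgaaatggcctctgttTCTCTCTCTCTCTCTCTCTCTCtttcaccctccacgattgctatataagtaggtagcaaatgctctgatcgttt

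His2B to His2A chr2L:21423609-21423736: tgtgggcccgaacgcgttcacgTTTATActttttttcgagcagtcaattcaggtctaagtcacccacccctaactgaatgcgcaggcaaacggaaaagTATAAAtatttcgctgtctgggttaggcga

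His1 upstream chr2L:21421755-21421854: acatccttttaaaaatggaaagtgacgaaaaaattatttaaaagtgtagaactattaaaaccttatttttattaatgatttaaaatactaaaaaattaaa

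The 3 genes outside the array with a divergent neighbour are shown by the interval between the start sites, on the plus strand, and His3.3B by the 100 bp upstream of its first TSS, on the minus strand. None of the 4 motifs occurred in these intervals.

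ball to His2Av chr3R:26866808-26866928: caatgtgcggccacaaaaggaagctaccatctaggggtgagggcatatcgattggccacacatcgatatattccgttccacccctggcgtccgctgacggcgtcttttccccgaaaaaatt

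CG14036 to His3.3A chr2L:5055017-5055057: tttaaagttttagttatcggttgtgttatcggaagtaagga

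put to His4r chr3R:14625704-14625754: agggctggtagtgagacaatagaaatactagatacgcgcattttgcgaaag

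His3.3B upstream chrX:9156670-9156769: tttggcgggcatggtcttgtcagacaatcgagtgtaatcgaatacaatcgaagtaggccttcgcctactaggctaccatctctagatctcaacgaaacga

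In the 100 bp upstream of the annotated start, a GA repeat was present at 23 of 23 His3 and 17 of 22 His4 copies, and at 5.42% of all protein-coding genes. A TATA box was present at 20 of 20 His2A, 23 of 23 His2B and 17 of 22 His4 copies and at 20.01% of all protein-coding genes. The His4 windows were not all alike, since the annotated His4 start lay 26 to 189 bp from that of His3. At the shortest distance the window runs into the His3 gene. His1 copies had neither in these letters. No array copy held the DRE core or the M1BP core there, which 5.96% and 2.92% of all protein-coding genes held. Within 50 bp of the strongest IDR summit of the 4 genes outside the array, the only match was GGTCACAC at His3.3A, a motif present at 3.31% of all IDR summits. At IDR summits over the genome, TATCGATA was present at 3.59%, GAGAGA at 3.46% and TATAAA at 19.85%. None of the motifs contains another, and a match describes these letters and not a bound site.

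Among the genes outside the array, His2Av had the strongest region. His2Av (FBgn0001197, chr3R:26866929-26869220, plus strand) had 2 IDR peaks. The stronger, chr3R:26866561-26866988, had a signal of 825.29, the authors' value per region, and rank 951 of 8952. The other, chr3R:26866751-26867240, had a signal of 331.77 and rank 4873. The strongest region at the gene had a signal of 328.57 in replicate 1, 284.81 in replicate 2 and 217.79 in replicate 3. Because the signal scale differs between lists, ranks were compared instead. Of the genes with a region at a TSS, 85.4%, 90.1% and 88.4% had a lower signal than His2Av in replicates 1, 2 and 3. That is 88.0% ± 2.38 (SD, n = 3), the highest of the 4 genes in each replicate.

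The stronger His2Av summit lay 134 bp upstream of the His2Av TSS and 12 bp from the TSS of ball, the gene of a nucleosomal histone kinase, which is transcribed in the other direction. Over the replicates this summit lay between 138 and 230 bp upstream of His2Av, a spread of 92 bp, and in every replicate it lay beyond the TSS of ball, inside the ball gene. The weaker summit lay 67 bp downstream of the His2Av TSS in the IDR list, 31 and 76 bp downstream in replicates 1 and 3, and 28 bp upstream in replicate 2. Regions near divergent genes cannot be assigned to either gene from these lists.

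His4r (FBgn0013981, chr3R:14625755-14626614, plus strand) had 1 IDR peak, chr3R:14625588-14625840, with a signal of 621.11 and rank 1701. Its strongest region had a signal of 285.75, 193.8 and 120.69 in replicates 1, 2 and 3, above 79.9%, 78.2% and 65.0% of the genes with a region. The summit lay 46 bp upstream of the His4r TSS and 6 bp from the TSS of put, the gene of the activin type II receptor punt. In the replicates it lay 46, 44 and 55 bp upstream, a spread of 11 bp. The pooled list and replicates 1 and 2 held a weaker region downstream, with its summit 162, 154 and 162 bp into the gene, and replicate 3 held none there. Its −log10 q-value was 2.18 in the pooled list, 4.22 in replicate 1 and 0.4 in replicate 2. In replicate 2 it therefore cannot be told from background.

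His3.3B (FBgn0004828, chrX:9152523-9156669, minus strand) had an IDR peak at its first TSS, chrX:9156471-9156714, with a signal of 590.37 and rank 1909. A weaker peak, chrX:9155108-9155597, with a signal of 206.82 and rank 8056, lay between its downstream start sites. It was the only 1 of the 4 genes with no divergent protein-coding TSS within 500 bp. The strongest region had a signal of 300.27, 176.25 and 112.2 in replicates 1, 2 and 3, above 81.9%, 73.8% and 62.1% of the genes with a region. Its summit lay 74 bp downstream of the first TSS in the IDR list and 85, 95 and 91 bp downstream in the replicates, a spread of 10 bp. The replicates also held a weaker region 114, 126 and 112 bp upstream of the first TSS, which was in the pooled list and not among the IDR peaks. Its −log10 q-value was 1.84, 2.68 and 0.28 in replicates 1, 2 and 3 and 1.64 in the pooled list. In replicate 3 it therefore cannot be told from background.

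His3.3A (FBgn0014857, chr2L:5055058-5056149, plus strand) had the lowest signal of the 4 in the IDR list. Its peak, chr2L:5054987-5055217, had a signal of 442.27 and rank 3198. In replicates 1, 2 and 3 the strongest region had a signal of 186.26, 129.64 and 124.99, above 58.6%, 58.9% and 66.6% of the genes with a region. The summit lay 52 bp downstream of the first TSS, between it and a TSS farther downstream, and 94 bp from the TSS of its divergent neighbour CG14036. In the replicates it lay 31, 8 and 52 bp downstream of the first TSS.

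His2Av ranked above the other 3 genes in every replicate, while the order below it changed. This rank is that of the region whose summit lies inside ball. The weaker peak, nearer to the His2Av TSS, had a signal of 331.77 in the IDR list, below the other 3 genes. In the replicates its signal was 151.83, 185.32 and 47.58, below the other 3 genes in replicates 1 and 3. In replicate 2 it was below His4r only. His4r averaged 74.4% ± 8.16 and His3.3B 72.6% ± 9.95 (SD, n = 3 each), and which of these was higher changed between replicates. His3.3A averaged 61.4% ± 4.53 (SD, n = 3). It was the lowest in replicates 1 and 2, but in replicate 3 it stood above both His4r and His3.3B. The 4 genes' median was 80.9%, 76.0% and 65.8% in replicates 1, 2 and 3. His3.3A and His3.3B encode identical proteins, and their coding sequences were 86.5% identical. Their peaks at the first TSS were 231 and 244 bp wide and that of His4r 253 bp. Of all IDR peaks 19.4% were at most that wide, and the median width was 490 bp. The narrow width did not hold in every replicate. In replicate 1 the widths at His3.3A, His3.3B and His4r were 211, 248 and 240 bp. They were 142, 470 and 470 bp in replicate 2, and 456 bp at each gene in replicate 3. The median width of all regions was 470, 470 and 456 bp in replicates 1, 2 and 3. The 470 and 456 bp values thus equal the median of their list, and no broadening between replicates can be read from them.

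**Figure D1:**
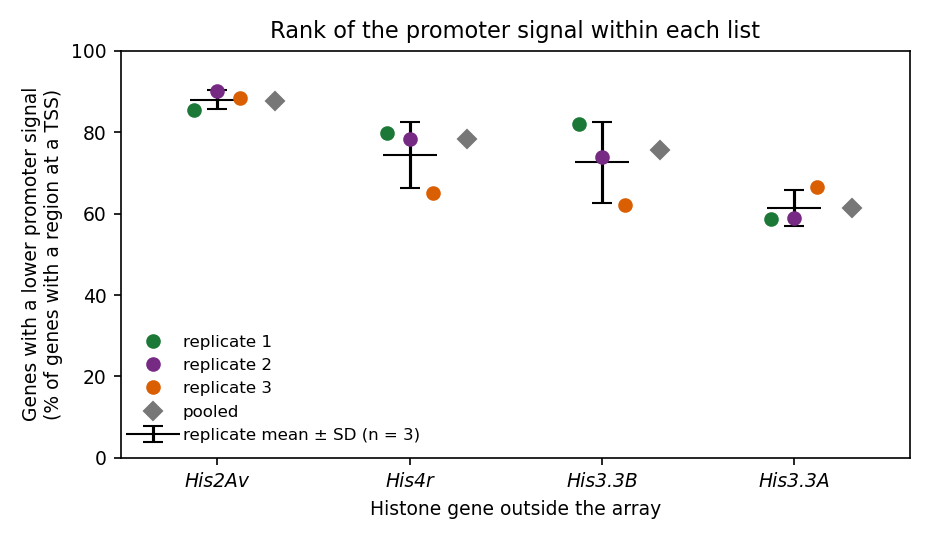
Rank of the strongest region at a TSS of each histone gene outside the array (horizontal axis), as the percentage of genes with a region at a TSS that had a lower signal in the same list (vertical axis). Circles are the 3 replicate lists, diamonds the pooled list, and lines the replicate mean with its SD (n = 3). His2Av lies between 85.4% and 90.1% in the replicates, and the replicate values of His4r and His3.3B overlap. The ranked His2Av region has its summit inside the divergent gene ball in every list.

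**Figure D2:**
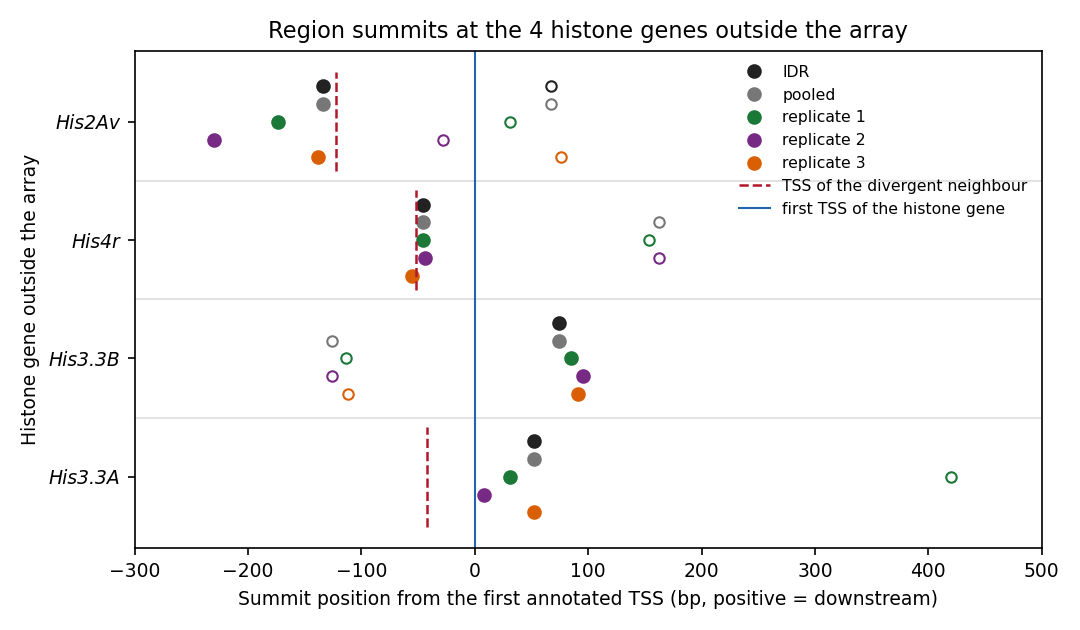
Position of each region summit from the first annotated TSS of the 4 histone genes outside the array, in bp, for the 5 lists. Filled circles are the strongest region in a list and open circles the weaker ones, and dashed lines mark the TSS of a divergent neighbour. The axis runs from 300 bp upstream to 500 bp downstream, so regions at the downstream start sites of His3.3B are not drawn. The strongest summits of His2Av and His4r lie upstream of the histone gene's TSS and those of His3.3B and His3.3A downstream.

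Divergent start sites were found both outside and inside the array. Of the genes outside the array, 3 of 4 had a protein-coding TSS on the other strand within 500 bp upstream, and of the array copies 84 of 111. Outside the array the facing start sites lay 122 bp apart for ball and His2Av, 52 bp for put and His4r and 42 bp for CG14036 and His3.3A. In the array the median was 129 bp for His2B and His2A and 184 bp for His4 and His3. All 3 divergent promoters outside the array had an IDR peak, and 0 of the 84 array copies had an IDR peak or a pooled region. Over all 3815 protein-coding genes so arranged, 78.3% had an IDR peak and 86.0% a pooled region. The 84 copies share their intervals in pairs and are near-identical, so they are not independent and were not tested against these shares. They also differ in sequence from most genes. For 105 of the 111 array copies, under 10% of the stretches near the TSS occur once in the genome. Of 120 other genes of that kind, divergent or not, 2.5% had an IDR peak and 4.17% a pooled region.

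Each type of array gene had 0 copies with a region in the IDR, pooled and replicate lists. Since every type consists of near-identical copies, these counts cannot show whether the types differ. The nearest pooled summit was at least 17.3 kb from any array TSS, with a median of 51.8 kb and a maximum of 80.4 kb. For the 3 replicates the nearest were 17.3, 18.7 and 17.2 kb away, and the nearest IDR summit was 32.3 kb away.

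The array copies also differed from the genes outside it in uniqueness, counted as the share of 50-base stretches starting within 500 bp of the TSS of the representative transcript that occur only once in the release 6 genome. In 98 of 111 array copies this share was 0%, and the highest was 24.58% (His2B:CG33908). The median stretch there occurred 23 times. In His2Av, His3.3A, His3.3B and His4r it was 100%. For other protein-coding genes, those with a share under 10% had an IDR peak in 3 of 120 cases and a pooled region in 5. Of the 13201 with at least 99%, 43.9% had an IDR peak and 59.7% a pooled region. The 3 low-share genes with an IDR peak were CG17574, CG44774 and Snoo, named after their values were seen. The share was taken at the representative TSS only, while a region was counted at any TSS of a gene. Regions at low-share genes may therefore lie at another TSS, in sequence of a different share. Of the array copies, 6 had a share of at least 10%, and of other genes with a share of 10% to under 50%, 3 of 78 had an IDR peak and 9 a pooled region. The file notes mention signal tracks of unique reads, but whether reads with several matches were kept for the region lists is not stated, and the part of uniqueness in the absence of regions was not tested. From these lists it cannot be told whether the protein was present at the array.

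**Figure D3:**
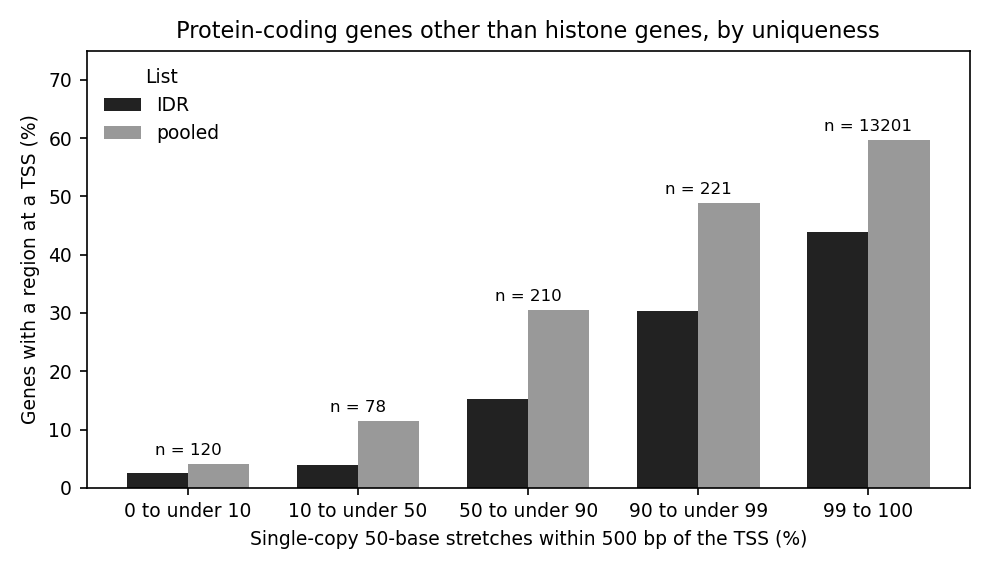
Percentage of protein-coding genes other than histone genes with a region at a TSS (vertical axis), in the IDR list (black) and the pooled list (grey), by the percentage of 50-base stretches near the TSS that occur once in the genome (horizontal axis). Numbers above the bars are genes. Uniqueness is that of the representative TSS, while a region may lie at any TSS of the gene. The share of genes with a pooled region is 4.17% in the lowest class and 59.7% in the highest, and 105 of the 111 array copies belong to the lowest class.

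Array copies were alike in coding sequence as well as in their promoters. All 23 His2B copies shared 1 coding sequence, and 23 His3 copies encoded 1 protein from 2 coding sequences. The 23 His1 copies were the most varied, with 5 protein and 7 coding versions. The genes outside the array were distinct at the level of DNA. His4r encodes the same 103-residue protein as the commonest array His4, yet only 83.8% of the 309 coding bases were identical, and the longest identical run was 17 bp. His3.3A and His3.3B differed from array His3 at 4 of 136 residues, with 81.4% and 80.9% of coding bases identical. His2Av was the most different, with 58.9% of its 141 residues identical to array His2A.

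The flanks of the array held fewer regions per length than the arm as a whole. The pooled list held 0 summits in the array, 9 in the 50 kb to its left and 8 in the 50 kb to its right, which is 0, 1.8 and 1.6 per 10 kb against 2.305 per 10 kb over arm 2L. The flank density depended on the window: both flanks together held 1.7 per 10 kb, against 0.75 in 20 kb flanks. With only the 8952 regions of highest signal, as many as there are IDR peaks, it was 0.3. Such a cut lowers the density everywhere, so 0.3 is to be set beside the arm's value for IDR peaks given below. The replicate lists held 0 in the array in each case, and 1.6, 1.8 and 1.6 per 10 kb on the left and 1.4, 1.4 and 1.6 on the right in replicates 1, 2 and 3. IDR peaks numbered 0 in the array, 1 on the left and 2 on the right, or 0, 0.2 and 0.4 per 10 kb, against 0.69 over the arm. Of the 50-base stretches, 1.4% in the array occurred only once in the genome, 80.2% in the left flank, 55.5% in the right flank and 92.2% over the arm. The part of uniqueness in the lower density of the flanks was not tested.

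The stretch without a pooled region around the array was chr2L:21397540-21558194, 160.7 kb long. It ranked 3 of the 4202 such stretches on 2L and 22 of 22916 over all arms, where the median was 1.62 kb. In replicates 1, 2 and 3 the stretch was 160.5, 162.5 and 160.7 kb. In the IDR list it was 201.9 kb, rank 12 of 1426 on 2L, against a median over all arms of 5.31 kb. In the pooled list 11.9% of the stretch, or 19.2 kb, consisted of 50-base stretches found only once, and 17.4 kb of that lay outside the array. The flanks next to the array contain several annotated transposable elements.

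**Figure D4:**
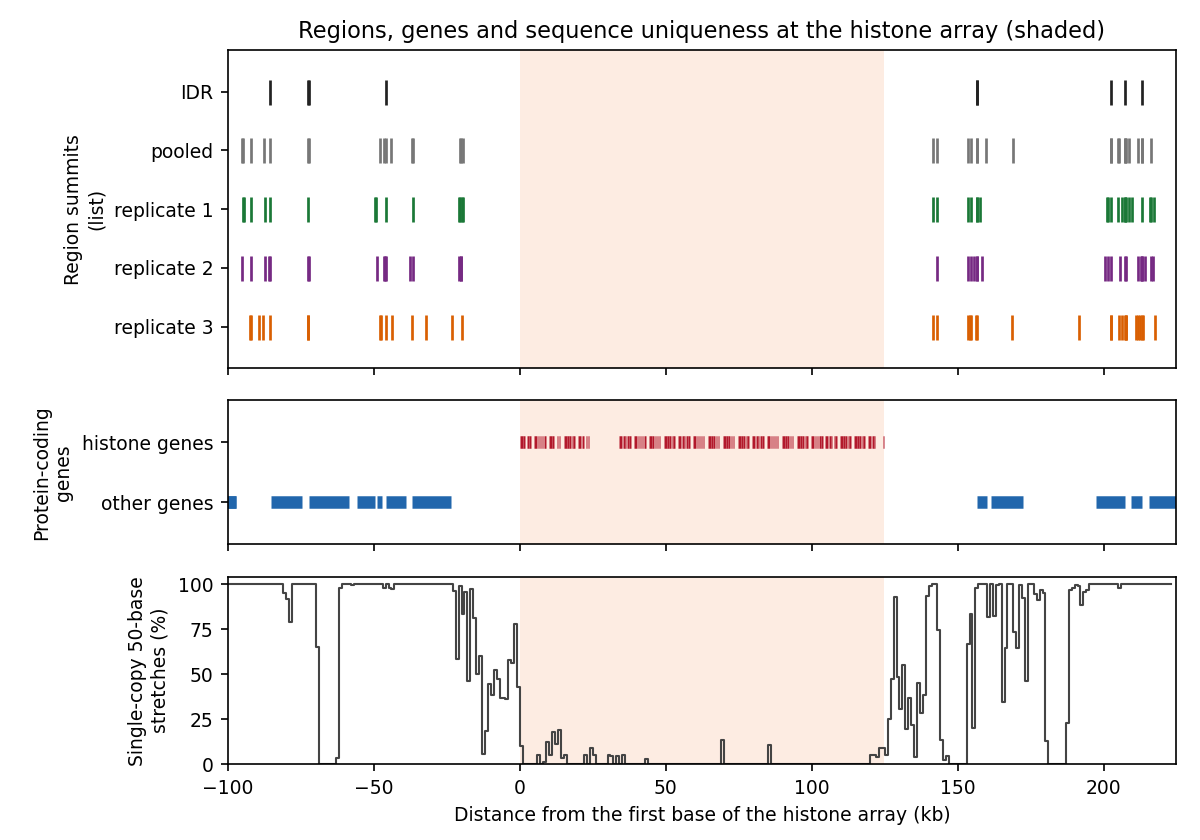
The histone array (shaded, 124.7 kb) with 100 kb on each side, as distance in kb from the first base of the array. From top to bottom are the region summits of the 5 lists, the protein-coding genes (histone genes of the array above, other genes below them), and the percentage of 50-base stretches in each 1 kb that occur once in the genome. No summit of any list falls in the shaded array, and the pooled summits nearest to it lie 19.7 kb to its left and 16.8 kb to its right.

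The nearest pooled region on the left, chr2L:21397050-21397539, had a signal of 121.85 and its summit 19.7 kb from the array. On the right, chr2L:21558195-21558684 had a signal of 74.63 and its summit 16.8 kb from it. Neither lay at a protein-coding TSS. The nearest protein-coding gene on the left was nrv3, a gene of a Na,K-ATPase beta subunit, with its 3′ end 23.6 kb away. It had a region at its TSS in the pooled list, with a signal of 146.31 and its summit 36.9 kb from the array. It also had one in each replicate, but no IDR peak. The nearest gene with an IDR peak on that side was CG8665, with its 3′ end 39.0 kb and its peak summit 45.9 kb away. This peak had a signal of 185.69, rank 8902 of 8952. On the right both were Lamp1, a lysosomal membrane protein gene, with its TSS and its peak summit 31.7 kb away, a signal of 416.59 and rank 3552. Of the 6 nearest protein-coding genes on each side, 2 on the left and 4 on the right had an IDR peak at a TSS, that is 6 of 12, near the 42.3% of all protein-coding genes.

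Genes whose products supply, modify or exchange histones were described from a list of 42 symbols, of which 39 matched the annotation. Of these, 32 (82.1%) had an IDR peak and 36 (92.3%) a pooled region at a TSS, against 42.3% and 57.9% of all protein-coding genes. The median signal of those with an IDR peak was 456.4, close to the 460.6 of all genes with one. In the replicates 37, 37 and 35 of the 39 had a region. The list was rich in divergent promoters, which carry regions more often over the whole genome. Of the 27 genes with a divergent protein-coding TSS within 500 bp, 23 (85.2%) had an IDR peak and 26 (96.3%) a pooled region, against 78.3% and 86.0% of all genes so arranged. Of the 12 without one, 9 and 10 did, against 28.8% and 47.3% of all such genes. Nph and Nlp face each other and share 1 peak that was counted for both.

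Of the genes of the histone locus body and of histone mRNA 3′ end formation, 9 of 11 had an IDR peak and all 11 a pooled region. The shares were 42.3% and 57.9% of all protein-coding genes, and 78.3% and 86.0% of those with a divergent TSS. The strongest were Cpsf100 (signal 668), a subunit of the cleavage machinery, Slbp (637), whose product binds the stem-loop of histone mRNA, mxc (482), which encodes the scaffold of the histone locus body, and mute (460), which encodes another component of it. FLASH and Lsm11, which act in 3′ end processing, had a pooled region but no IDR peak. The array at which these products act had no region in any list, and 1.4% of its 50-base stretches occurred once in the genome. Whether CG12659 was present there cannot be told from these lists.

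Of the histone chaperones 14 of 15 had an IDR peak, against 42.3% of all protein-coding genes and 78.3% of those with a divergent TSS. The strongest were Nasp (718), which binds free H3 and H4, dre4 (716), the Spt16 subunit of FACT, XNP (600), the ATRX homologue, and yem (595), a partner of Hira in H3.3 deposition. Only mil had no region in the IDR list or in any other list. Of the genes of variant exchange and remodelling 9 of 10 had an IDR peak, against the same 42.3% and 78.3%. The highest were Ino80 (1184), the ATPase of the complex that CG12659 belongs to by homology, Chd1 (1032), dom (956), the ATPase that exchanges His2Av, and Arp5 (714), another INO80 subunit. Arp6 had a pooled region without an IDR peak. The genes of cid (the centromeric H3), its loading factor cal1 and BigH1 (the embryonic linker histone) had no IDR peak. All 3 had a region in replicate 1, cid and BigH1 in replicate 2, none in replicate 3, and in the pooled list only cid had one. The shares of all protein-coding genes were 42.3% for IDR peaks and 57.9% for the pooled list. For replicates 1, 2 and 3 they were 58.9%, 57.8% and 55.7%.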

How the data were processed

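Members and gene lists were chosen with earlier results of these data known. Per the file notes, the authors called regions on each replicate and on all 3 together against 1 control alignment, and kept a reproducible set by an IDR step. The aligner, the caller, their versions and the threshold were not given in the sources used here. Labels give CG12659 in the antibody field and anti-GFP in the description. The deposited signal is the authors' value per region and was compared within lists only. The −log10 q-value deposited per region was not used to rank or select regions, since it is capped at 4.23 in the IDR list. The pooled and replicate lists were not cut by it and hold regions of low value. The summit offset of the deposited lists gave each summit. Chromatin had been sonicated to 200 to 800 bp, per the labels. Coordinates are 1-based on dm6. Genes came from Ensembl release 115 (BDGP 6.54) and sequence from the release 6 genome. The dm3 lists were not used. Transposable elements were left out, leaving 18164 genes. Uniqueness counted both strands and all 1870 genome sequences. Named genes were the 4 outside the array, the ends of the array, the nearest genes on each side, and in each subgroup of the supply list the 4 of highest signal and those without a peak. NELF-E, DEK and DLP matched no symbol. The counting was tested on simulated data. Python 3.11.15, numpy 2.4.6, pandas 2.3.3, matplotlib 3.10.9 and Biopython 1.88 were used.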

Additional observations from a re-analysis of the deposited data

How the results depend on the processing

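The array stayed at 0 of 111 copies and the genes outside it at 4 of 4 with IDR peaks within 200 or 1000 bp, with any base of the region in place of the summit, with the stronger part of the IDR peaks (4476 regions), and without each replicate in turn. The background share was then 34.5%, 45.6%, 44.0% and 28.8%, and 37.2%, 37.9% and 39.0% without replicates 1, 2 and 3. The array count in the pooled and replicate lists and its density also stayed at 0 under their alternatives. None of these alternatives could have changed the array values. The nearest summit of any list lay 17.2 kb from an array TSS, beyond every distance and region width used. The supply list held 23 to 32 genes with an IDR peak, against 32. Sets without a replicate came from no new IDR step: they held the highest regions shared by both remaining replicates, with 50% of the shorter region overlapping. Pooled regions in the flanks were 1.7 per 10 kb, against 0.75 in 20 kb flanks and 1.8 in 100 kb flanks. With only the 8952 highest regions they were 0.3, a cut that lowers the density everywhere (arm 2L held 0.69 IDR peaks per 10 kb). The cause of the lower value in 20 kb flanks was not tested. Median uniqueness of the array copies stayed at 0% with 36 and 100 bases. The median rank of the 4 genes outside the array, averaged over replicates, was 70.9% to 78.45% with a replicate left out, against 74.23%; this alternative was chosen after seeing the data. No paired analysis was possible because there is 1 group. The lists hold no depth, so a weak region below the lists' limits cannot be seen, and how reads in repeated sequence were treated is not stated.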
